A study of Mus musculus with 10 samples.

Results

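The 9 genes described here are the glucose transporter genes Slc2a4, Slc2a1 and Slc2a3, the adipocyte regulator Pparg with its coactivators Ppargc1a and Ppargc1b, and the MEF2 transcription factor genes Mef2a, Mef2c and Mef2d. They were picked by symbol from the 47937 genes listed in each library, and all 9 had a count. Expression was measured by polyA mRNA-seq in visceral white adipose tissue (WAT) of C57BL/6 mice, in 10 libraries. Mof encodes the acetyltransferase that acetylates histone H4 at lysine 16, and its mouse gene symbol is Kat8. By the labels, 3 libraries came from wild-type (Mof+/+) mice and 3 from Mof heterozygotes (Mof+/-), all 8 weeks old and kept on standard diet (SD). A further 2 Mof+/+ and 2 Mof+/- libraries came from mice 27 weeks old after 20 weeks of high-fat diet (HFD). The study's text gives other ages and another duration of HFD, and by the labels diet and age cannot be told apart. Heterozygotes keep 1 intact allele. No source used here states that the libraries of a group came from separate mice, so p-values measure only the spread between libraries.

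In GRCm38 coordinates (GENCODE M21) Slc2a4 lies at chr11:69942539-69948188, Slc2a1 at chr4:119108711-119137983, Slc2a3 at chr6:122727809-122801640 and Pparg at chr6:115360951-115490399. Ppargc1a lies at chr5:51454250-51567726, Mef2a at chr7:67231163-67372858, Mef2c at chr13:83504034-83667080 and Mef2d at chr3:88142372-88172086, and Ppargc1b is on chromosome 18. Counts joined all exons of a gene.

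Adipocytes take up glucose in response to insulin mainly through GLUT4, the product of Slc2a4, which moves from vesicles inside the cell to the surface. GLUT1 (Slc2a1) and GLUT3 (Slc2a3) carry the basal uptake of many cell types, GLUT3 above all in neurons and blood cells. PPARγ drives adipocyte differentiation and lipid storage, PGC1α and PGC1β (Ppargc1a, Ppargc1b) are coactivators best known from mitochondrial biogenesis, and MEF2 factors bind the Slc2a4 promoter and are prominent in muscle, endothelium and neurons.

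Depth and composition differed between the libraries. Total counts on genes were 6724618 to 17171947 on SD, 15483115 and 16014992 in HFD Mof+/+, and 1044355 and 5531786 in HFD Mof+/-. Adipocyte markers were present in every library (10 of 10 genes with a count, summed level 15998 to 71019 CPM, the count per 1000000 counts of its library). The Kat8 level was 21.5, 21.4 and 20.4 CPM in SD Mof+/+ and 12.2, 18.8 and 11.5 in SD Mof+/-, and the fitted log2 difference of Kat8 was -0.22 ± 0.35 (edgeR adjusted p = 0.736). On HFD it was 18.1 and 19.2 CPM in Mof+/+ against 20.1 and 10.5 in Mof+/- (fitted log2 difference 0.06 ± 0.82, edgeR adjusted p = 0.987). The library labelled HFD Mof+/- replicate 1 was therefore not below its controls for Kat8, with 21 counts and an exact Poisson 95% interval of 12.4 to 30.7 CPM that covers counting error only. Xist, expressed from the inactive X chromosome of females, was at 139, 46.1 and 58.0 CPM in SD Mof+/-, and it had no counts in the remaining 7 libraries. The Y-linked gene Ddx3y had no counts in those 3 libraries and stood at 49.7 to 100 CPM in the other 7, although the study's methods name male mice. Genotype on SD, diet in Mof+/- and the genotype by diet interaction thus cannot be told apart from the sex of the tissue that these genes mark. The column headings inside the deposited files give the third SD libraries the opposite genotypes, and grouped by them edgeR called 0 of all 13864 genes for genotype on SD (232 at an unadjusted p under 0.05) and 0 of 14619 for diet in Mof+/+ (1404 at an unadjusted p under 0.05). Every edgeR call given here for these 2 comparisons, in the 9 genes and in the lists, therefore rests on the groups of the labels.

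The promoters of Slc2a1, Mef2a and Mef2d are shown because these 3 genes were lower in every SD Mof+/- library, had a count in all 10 libraries and have 1 listed start each (RefSeq, GRCm38.p6). Of the 9 genes, 6 had an entry (Slc2a1, Pparg, Ppargc1a, Mef2a, Mef2c, Mef2d). Each line gives the 250 bases before the start, 5′ to 3′, with capitals marking matches on either strand to the GC box, written GGGCGG, to the NF-Y motif, written CCAAT, or to the TATA box, written TATAAA. The Slc2a1 window is chr4:119108495-119108744, plus strand, the Mef2a window chr7:67372859-67373108, minus strand, and the Mef2d window chr3:88142122-88142371, plus strand. The listed RefSeq start of Slc2a1 lies downstream of the GENCODE gene start given above, so the end of its window falls inside that gene.
Slc2a1: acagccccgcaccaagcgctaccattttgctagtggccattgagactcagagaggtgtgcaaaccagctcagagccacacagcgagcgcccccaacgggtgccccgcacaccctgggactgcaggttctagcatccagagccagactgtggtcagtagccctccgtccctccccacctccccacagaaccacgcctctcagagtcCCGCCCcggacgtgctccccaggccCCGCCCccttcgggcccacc
Mef2a: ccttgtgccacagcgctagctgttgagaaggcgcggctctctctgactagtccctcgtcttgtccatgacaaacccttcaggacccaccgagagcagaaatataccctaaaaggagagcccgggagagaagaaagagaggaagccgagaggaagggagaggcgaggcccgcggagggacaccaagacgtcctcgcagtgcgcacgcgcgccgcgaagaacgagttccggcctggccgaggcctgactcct
Mef2d: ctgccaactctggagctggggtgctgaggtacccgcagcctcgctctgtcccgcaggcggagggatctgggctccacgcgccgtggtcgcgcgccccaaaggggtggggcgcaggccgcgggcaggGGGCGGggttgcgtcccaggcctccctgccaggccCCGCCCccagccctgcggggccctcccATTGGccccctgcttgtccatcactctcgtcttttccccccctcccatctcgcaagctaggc
The GC content was 66.4% for Slc2a1, 61.6% for Mef2a and 73.2% for Mef2d, against a median of 52.4% over 32851 listed promoters. Slc2a1 and Mef2d each held 2 GC boxes, a motif found in 32.7% of all these windows, and Mef2a held none. CCAAT was found in 33.8% of the windows and TATAAA in 12.4%.

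Pparg is transcribed from several starts, and the deposited counts join all its transcripts, so its isoforms could not be told apart. The windows of an upstream start (chr6:115362099-115362348, plus strand) and of the most downstream start (chr6:115421816-115422065, plus strand), which precedes the first exon of the adipocyte isoform PPARγ2, are shown because both feed the 1 Pparg value of each library.
Pparg, upstream start: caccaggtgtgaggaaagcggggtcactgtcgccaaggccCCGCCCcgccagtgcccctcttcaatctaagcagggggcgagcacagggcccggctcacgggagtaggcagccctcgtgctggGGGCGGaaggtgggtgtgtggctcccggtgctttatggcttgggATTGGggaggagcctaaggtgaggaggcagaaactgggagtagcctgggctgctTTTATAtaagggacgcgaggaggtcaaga
Pparg, downstream start: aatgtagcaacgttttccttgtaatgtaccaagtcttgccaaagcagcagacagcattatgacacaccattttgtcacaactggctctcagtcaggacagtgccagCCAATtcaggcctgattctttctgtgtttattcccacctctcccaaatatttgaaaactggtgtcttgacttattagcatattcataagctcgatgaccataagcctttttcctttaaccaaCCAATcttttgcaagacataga
The upstream window was rich in G and C (63.6%) with 12 CpG dinucleotides, and the downstream window was not (40.8%, with 2). No listed window of the 6 genes held the MEF2 core, which is CTA and TAG with 4 free bases between (3.20% of all windows). The E-box CACGTG (6.02%), the cyclic AMP response element TGACGTCA (1.55%) and the PPAR response element, AGGTCA repeated after 1 free base (0.0335%), were also in none of them on either strand. These matches describe letters only, and no match says nothing of binding elsewhere.

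Per kb of exon, Pparg and Slc2a4 were the most abundant of the 9 transcripts in SD Mof+/+, with 75.3 ± 21.3 and 56.6 ± 11.2 CPM per kb (SD, n = 3). Mef2d followed at 14.7 ± 0.270, and the order went on with Slc2a1 at 6.06 ± 1.40, Mef2a at 5.83 ± 0.460, Slc2a3 at 3.96 ± 1.65, Mef2c at 3.59 ± 0.969, Ppargc1b at 1.67 ± 0.943 and Ppargc1a at 1.45 ± 0.374 CPM per kb. Pparg and Slc2a4 differed by less than the spread of Pparg but by more than that of Slc2a4, and Pparg was higher in every SD Mof+/+ library. Slc2a1 and Mef2a differed by less than the spread of either, as did Slc2a3 and Mef2c, and the pair of PGC1 genes. In SD Mof+/- the same scale gave 71.4 ± 21.1 for Pparg, 62.5 ± 2.40 for Slc2a4 and 6.46 ± 0.987 for Mef2d, with the other 6 genes at or below a mean of 2.70 CPM per kb.

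**Figure D1:**
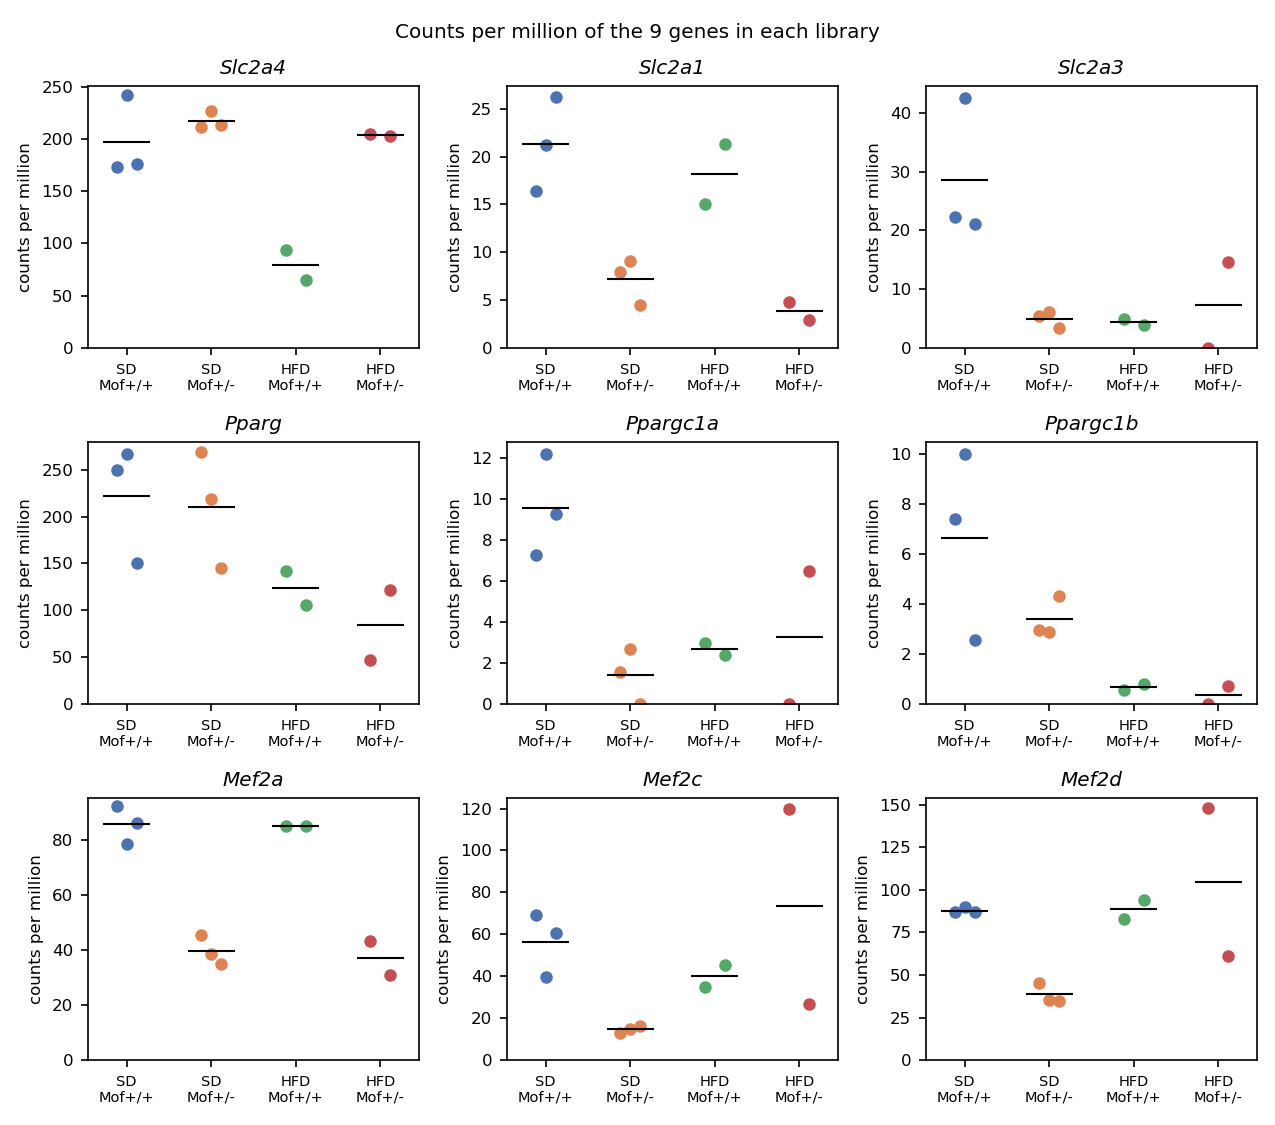
Level in CPM (y axis, from 0) of each of the 9 genes in the 10 libraries, by group (x axis), with 1 point per library and a line at the group mean. Slc2a1 and Mef2a are lower in Mof+/- on both diets, neither with an edgeR adjusted p under 0.05. Slc2a4 is lowest in the HFD Mof+/+ points (93.4 and 65.3 CPM).

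The first comparison asked how the genes differed between genotypes in young mice on SD. Slc2a3 and Mef2c fell in Mof+/-, and Slc2a1, Mef2a, Mef2d and Ppargc1a were also lower in every Mof+/- library than in any Mof+/+ library, without passing the adjusted threshold. Slc2a4 and Pparg, the most abundant of the set, overlapped between the genotypes in plain CPM. By edgeR's quasi-likelihood test with Benjamini-Hochberg adjustment over 13864 genes, 2 of 9 genes passed at 0.05, both lower, where 5.24% of all genes passed and 1.91% passed as lower. Both calls were lost after length correction (465 of all 13839 genes called) and under several other settings given below. The median log2 fold change was -0.83 over the 9 genes and -0.07 over all genes tested. The groups did not overlap in CPM for 6 of the 9 genes, each lower in Mof+/-, against 30.6% of all genes tested that did so.

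Among the transporters, Slc2a4 stood at 173, 242 and 176 CPM in SD Mof+/+ and at 211, 227 and 214 CPM in SD Mof+/-. In plain CPM the Mof+/- libraries lay inside the range of the controls, and the fitted log2 difference was 0.50 ± 0.24 (SE, n = 3 per group, edgeR adjusted p = 0.226). The TMM scaling factors were 1.13 to 1.18 in SD Mof+/+ and 0.842 to 0.917 in SD Mof+/-, so fitted differences lie above those of plain CPM. Divided by these factors, Slc2a4 was higher in every SD Mof+/- library than in any control. Slc2a1 was at 16.3, 21.2 and 26.2 CPM against 8.0, 9.1 and 4.5. Every Mof+/- library lay below every control, with a log2 fold change of -1.21 ± 0.43 (edgeR adjusted p = 0.123). Slc2a3 was at 22.4, 42.5 and 21.2 CPM in SD Mof+/+ and at 5.4, 6.1 and 3.4 CPM in SD Mof+/-. It fell by 2.17 ± 0.45 on the log2 scale (edgeR adjusted p = 0.0394). The highest Slc2a3 control, replicate 2, also carried neuron and glia markers (8 of 8 genes with a count, summed 1291 CPM) that summed to 103 and 156 CPM in the other controls and to 37.4 to 55.9 CPM in SD Mof+/-, where Snap25 was at 0 and 4 or 5 of 8 genes had a count. Without that library the log2 difference of Slc2a3 was -1.76 and 0 of the 9 genes passed, as did only 35 of all 14630 genes.

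As a share of the 3 transporters per kb, Slc2a4 made up 86.5%, 85.4% and 82.9% in SD Mof+/+ and 95.3%, 95.0% and 97.2% in SD Mof+/-. The means of 84.9% and 95.8% differed by 10.9 percentage points, and all 3 Mof+/- libraries were higher (exact permutation test, two-sided, p = 0.1, and 3 against 3 allows none smaller). A share needs no scaling between libraries. On SD, endothelial markers summed to 1490 to 3574 CPM in Mof+/+ and to 386 to 523 CPM in Mof+/-. Adipocyte markers summed to 32344 to 40593 CPM in SD Mof+/+ and to 48606 to 71019 CPM in SD Mof+/-. The part of these shifts in the SD shares was not tested. On HFD the share of Slc2a4 was 84.4% and 73.9% in Mof+/+ and 97.7% and 95.3% in Mof+/-. Skeletal muscle markers summed to 82152 and 1966 CPM in HFD Mof+/- against 85.8 and 92.5 in HFD Mof+/+, the share in HFD Mof+/- replicate 1 rests on 5 Slc2a1 and 0 Slc2a3 counts, and the part of muscle RNA in the HFD shares was not tested. By the labels, the Mof+/- libraries of both diets were above every Mof+/+ library in this share. With the SD libraries grouped by column headings, the SD means were 89.7% and 91.1%, a difference of 1.34 percentage points, and the groups overlapped (exact permutation test, two-sided, p = 1).

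**Figure D2:**
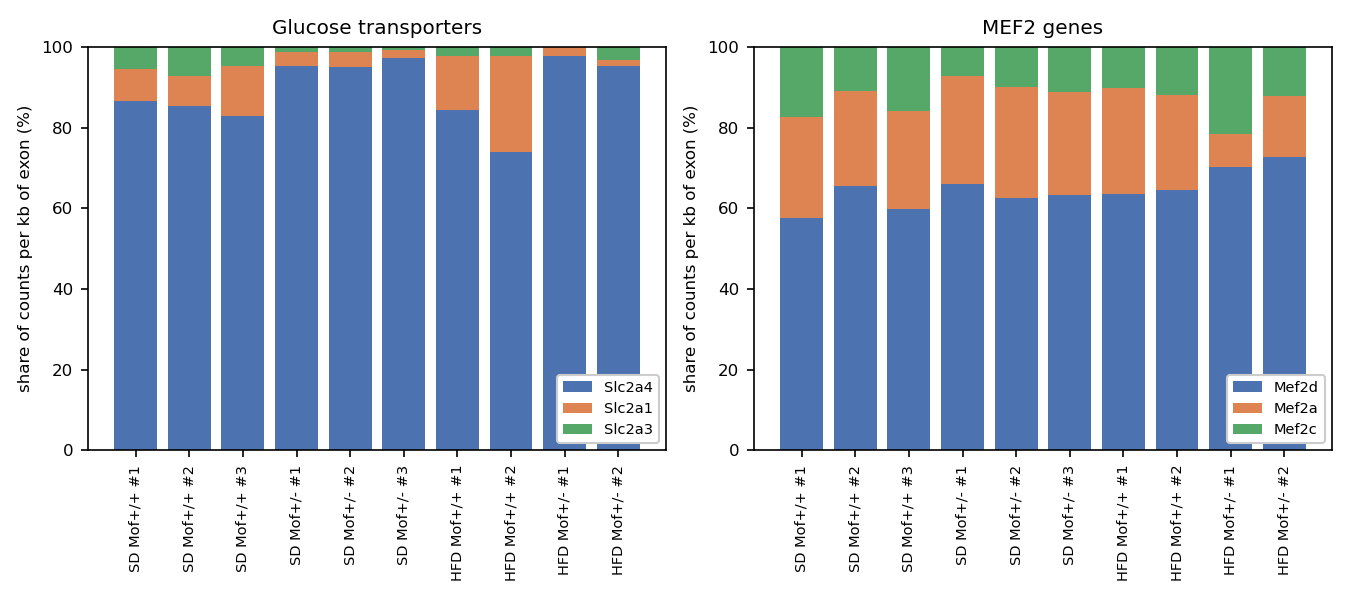
Share of counts per kb of exon (y axis, %) taken by each of the 3 glucose transporters (left) and each of the 3 MEF2 genes (right) in every library (x axis, # gives the replicate). Grouped by the labels, Slc2a4 takes 95.0% or more in each Mof+/- library and at most 86.5% in each Mof+/+ library, and Mef2d takes the largest part of the MEF2 counts in all 10.

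Each MEF2 gene was lower in CPM in every SD Mof+/- library, and only Mef2c passed. After the length correction described below, the log2 differences were -0.10 for Mef2a, -0.85 for Mef2c and -0.53 for Mef2d, and none passed. Mef2a was at 92.1, 78.6 and 86.1 CPM in Mof+/+ and at 45.2, 38.6 and 34.9 in Mof+/-, a log2 difference of -0.76 ± 0.22 (edgeR adjusted p = 0.0774). Mef2d was at 87.0, 89.7 and 86.9 CPM against 45.5, 35.6 and 34.9, a log2 difference of -0.83 ± 0.22 (edgeR adjusted p = 0.0629). In both genes the groups were far apart in CPM without overlap. Mef2c was at 69.2, 39.6 and 60.4 CPM against 13.1, 14.8 and 16.1, and it fell by 1.58 ± 0.31 on the log2 scale (edgeR adjusted p = 0.0362). Endothelial markers, with 10 of 10 genes counted in every library, summed to 1490 to 3574 CPM in SD Mof+/+ and to 386 to 523 CPM in SD Mof+/-, and their part in the Mef2c difference was not tested. In bulk tissue, fewer cells of a type and less RNA per cell cannot be told apart. B and T lymphocyte markers, which can accompany Mef2c, summed to 680 CPM in SD Mof+/+ replicate 3 (10 of 10 genes with a count) and to 13.5 to 34.1 CPM in the other SD libraries. Without that library the log2 difference of Mef2c was -1.54.

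Within the MEF2 genes, per kb of exon, Mef2d made up 61.0% ± 4.08 of the counts in SD Mof+/+ and 63.9% ± 1.85 in SD Mof+/- (SD, n = 3 each). Mef2a made up 24.2% ± 0.730 and 26.7% ± 0.928, and Mef2c 14.8% ± 3.36 and 9.39% ± 1.96. The Mef2c shares of 11.02% to 17.5% and 7.2% to 11.1% overlapped slightly.

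Pparg itself was at 249, 267 and 150 CPM in SD Mof+/+ and at 269, 219 and 145 CPM in SD Mof+/-. The groups covered nearly the same range (log2 difference 0.26 ± 0.31, edgeR adjusted p = 0.634). Ppargc1a was at 7.3, 12.2 and 9.3 CPM against 1.6, 2.7 and 0, where 0 of 6724618 counts allows up to 0.446 CPM (3 counts). Its groups did not overlap, yet the log2 difference of -2.40 ± 1.11 did not pass (edgeR adjusted p = 0.215). Ppargc1b overlapped, at 7.4, 9.998 and 2.6 CPM against 3.0, 2.9 and 4.3 (log2 difference -0.61 ± 0.77, edgeR adjusted p = 0.660).

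Differences between the genotypes on SD went with transcript length. Across 13839 genes, the log2 fold change and the exon length had a Spearman rho of -0.431, as a description across genes that share their libraries. Mef2c and Mef2a, with 15715 and 14681 bases of exon, are the longest of the 9 genes, and Pparg and Slc2a4, with 2953 and 3478, the shortest. After a per-library correction for length, Mef2a moved from -0.76 to -0.10, Mef2c from -1.58 to -0.85 (edgeR adjusted p = 0.244) and Slc2a3 from -2.17 to -1.79 (edgeR adjusted p = 0.0534), and 0 of 9 genes passed (3 at an unadjusted p under 0.05), against 465 of all 13839 genes (3035 at an unadjusted p under 0.05). Slc2a1 (3506 bases) was -1.27 after the correction and -1.21 before it. DESeq2 called 4 of the 9, namely Slc2a3, Mef2a, Mef2c and Mef2d, against 16% of all genes. The count of 2 went to 0 by column headings, in the fit of all 10 libraries (194 of all 15897 genes called), and without any 1 of the SD Mof+/+ libraries or SD Mof+/- replicate 2 (19, 35, 74 and 17 of all genes called). It was 1 (Mef2c) without SD Mof+/- replicate 1 (1026 of all genes called). Calls over all genes thus fell with those of the 9 genes under most of these settings.

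**Figure D3:**
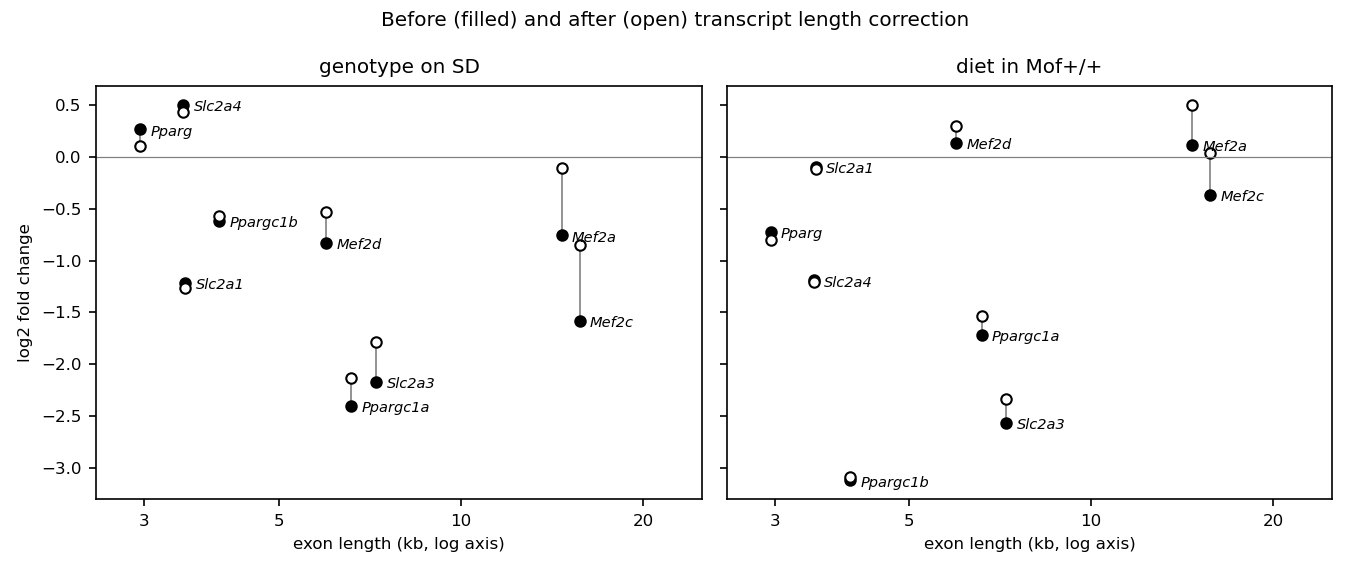
Log2 fold change (y axis) against exon length in kb (x axis, log scale) for the 9 genes, in Mof+/- against Mof+/+ on SD (left) and in HFD against SD within Mof+/+ (right). Filled points are uncorrected and open points are corrected for length, and the longest genes, Mef2a and Mef2c, shift most (Mef2a from -0.76 to -0.10 on SD).

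Of 12 adipocyte PPARγ targets, 6 rose in SD Mof+/- and 0 fell, where 3.33% of all genes rose, while Pparg itself overlapped. The list had a median log2 fold change of 1.24, or 0.88 after length correction, against -0.07 for all genes. Those that rose were Pck1, a glyceroneogenic enzyme (2.71 ± 0.62), Lpl, the lipase that releases fatty acids for uptake (2.13 ± 0.37), Acsl1, which activates fatty acids (1.91 ± 0.33), Fabp4, a fatty acid carrier (1.79 ± 0.37), Cidec, a lipid droplet protein (1.61 ± 0.29), and the adipokine gene Adipoq (1.53 ± 0.27; edgeR adjusted p from 0.0290 to 0.0459). After length correction Lpl, Acsl1 and Fabp4 still passed and the other 3 did not, and by column headings none of the 6 passed. Of these targets Fabp4, Cidec, Plin1 and Adipoq are also in the adipocyte marker list, whose summed level was 32344 to 40593 CPM in SD Mof+/+ and 48606 to 71019 CPM in SD Mof+/-. Mesothelial markers, which mark the lining of the body cavity, summed to 39.6 to 86.8 CPM in SD Mof+/+ and to 177 to 352 CPM in SD Mof+/- (3 of 6 genes rose), and their part was not tested. In these libraries a change in the share of adipocyte RNA and a change per adipocyte cannot be told apart. Of the 18 PPAR partners and coregulators 17 were tested and 0 passed (6 at an unadjusted p under 0.05, all lower, against 11.6% of all genes that were lower at that p), with a median of -0.73, or -0.32 after length correction.

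Of 8 further regulators of the Slc2a4 promoter, 1 fell, Srebf1, a regulator of lipid synthesis (-1.57 ± 0.34, edgeR adjusted p = 0.0404). In the list of glucose phosphorylation and sensing, not all of whose calls are reported here, Mlxipl, which encodes the carbohydrate sensor ChREBP, fell. It was at 262, 162 and 80.7 CPM against 34.1, 31.4 and 14.6 (log2 difference -2.32 ± 0.47, edgeR adjusted p = 0.0371). Of 14 genes of GLUT4 vesicle traffic, 7 tested MEF2 coregulators, 7 tested other Slc2a genes and 8 tested PGC1 partners, 0 passed in each (0, 4, 0 and 2 at an unadjusted p under 0.05, against 25.7% of all genes). The 2 with the largest SD differences were Hdac7 (-1.17 ± 0.29) and Hdac9 (1.09 ± 0.62) for the MEF2 coregulators, both class IIa deacetylases that bind MEF2 factors, and Slc2a6 (-1.46 ± 1.39) and Slc2a9 (-1.39 ± 0.76) for the transporters. Mef2b and Slc2a7 had 0 counts in all 10 libraries.

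**Figure D4:**
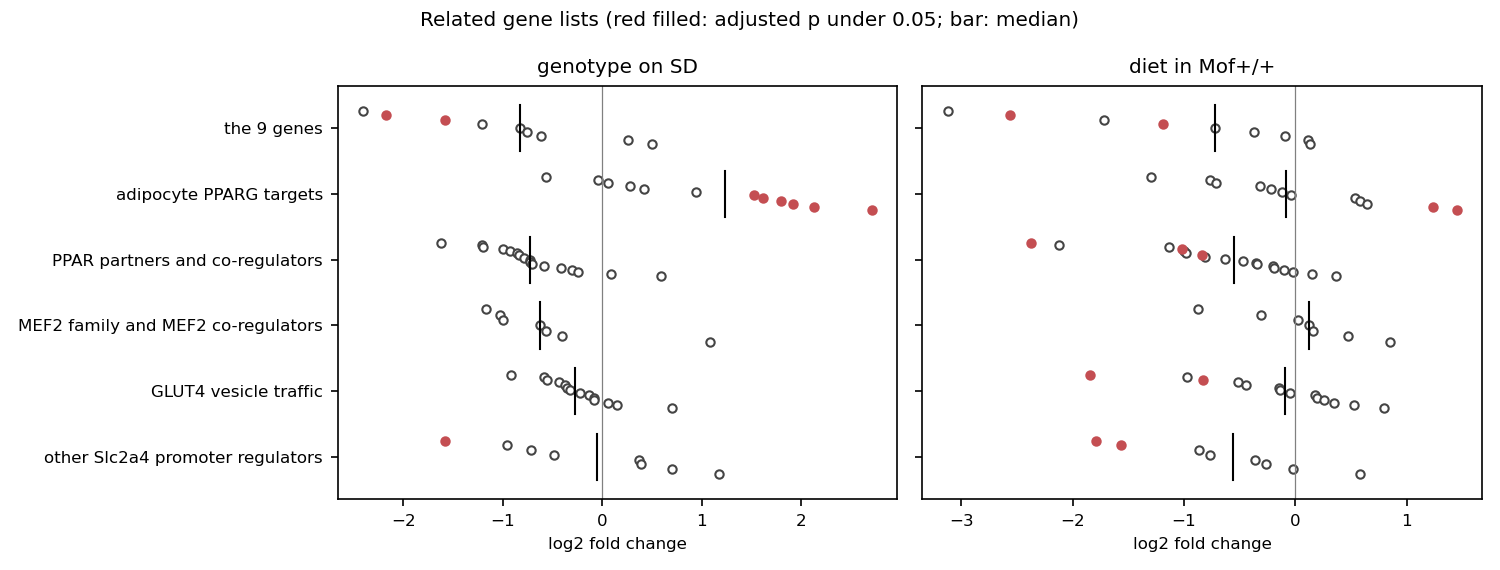
Log2 fold changes (x axis) of the tested genes of 6 lists (y axis), with a bar at each median and red filled points for edgeR adjusted p under 0.05, in Mof+/- against Mof+/+ on SD (left) and in HFD against SD within Mof+/+ (right). On SD, 6 adipocyte PPARγ targets stand to the right, while the 2 called genes of the 9 stand to the left.

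The second comparison asked how the genes responded to HFD in Mof+/+ mice, and it shares the 3 SD Mof+/+ libraries with the first. Slc2a4 and Slc2a3 fell on HFD, Pparg and both PGC1 genes were lower without overlap, and Mef2a and Mef2d had log2 differences of 0.12 and 0.14, or 0.50 and 0.30 after length correction, without passing. With edgeR's quasi-likelihood test and Benjamini-Hochberg adjustment over 14939 genes, 2 of 9 genes passed, both lower, against 9.75% of all genes and 3.73% that passed as lower. The median was -0.72 over the 9 genes and -0.04 over all genes. The groups did not overlap for 5 of the 9, each lower on HFD, against 28.2% of all genes.

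Slc2a4 was at 173, 242 and 176 CPM on SD and at 93.4 and 65.3 CPM on HFD. Both HFD libraries lay below all 3 SD libraries, and Slc2a4 fell by 1.19 ± 0.26 on the log2 scale (edgeR adjusted p = 0.0348, n = 3 and 2). Slc2a3 was at 22.4, 42.5 and 21.2 CPM on SD and at 4.9 and 4.0 CPM on HFD, and its log2 difference was -2.57 ± 0.45 (edgeR adjusted p = 0.0201). Slc2a1, in contrast, overlapped, at 16.3, 21.2 and 26.2 CPM against 15.0 and 21.4 (log2 difference -0.10 ± 0.33, edgeR adjusted p = 0.881). Both called genes passed after length correction as well, at log2 differences of -1.21 for Slc2a4 and -2.34 for Slc2a3. The count was 4 with DESeq2 (Slc2a4, Slc2a3, Ppargc1a and Ppargc1b), against 20.4% of all genes. It was 0 by column headings, in the fit of all 10 libraries (142 of all genes called), without SD replicate 1 (250) and without either HFD library (249 and 64). It was 1 (Slc2a3) without SD replicate 2 (889 of all genes called) and 4 (Slc2a4, Slc2a3, Pparg and Ppargc1b) without SD replicate 3 (2230).

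Pparg was at 249, 267 and 150 CPM on SD and at 142 and 106 on HFD, with both HFD libraries below the lowest SD library (log2 difference -0.72 ± 0.30, edgeR adjusted p = 0.164). Ppargc1a went from 7.3, 12.2 and 9.3 to 3.0 and 2.4 CPM (-1.72 ± 0.57, edgeR adjusted p = 0.101). Ppargc1b went from 7.4, 9.998 and 2.6 to 0.581 and 0.812 CPM, with only 9 and 13 counts on HFD (-3.12 ± 0.94, edgeR adjusted p = 0.0803). Among the MEF2 genes, Mef2a was at 85.0 and 85.2 CPM on HFD and Mef2d at 83.0 and 94.1, within or close to their SD ranges (log2 differences 0.12 ± 0.17 and 0.14 ± 0.17). Mef2c was at 34.6 and 45.3 CPM on HFD, with 1 library below and 1 within its SD range of 39.6 to 69.2 CPM (-0.37 ± 0.28, edgeR adjusted p = 0.431). Macrophage markers summed to 5532 and 7677 CPM on HFD and to 1180 to 2025 CPM on SD, while adipocyte markers summed to 29567 and 25814 CPM on HFD against 32344 to 40593. Endothelial markers summed to 701 and 606 CPM on HFD against 1490 to 3574 on SD (10 of 10 genes with a count in each), and neuron and glia markers to 51.3 and 53.1 CPM (3 and 2 of 8 genes, Snap25 and Syt1 at 0) against 103 to 1291. The part of these shifts in the differences of Slc2a4, Slc2a3, Pparg and Mef2c was not tested.

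In the related lists, 2 of 14 genes of GLUT4 vesicle traffic fell on HFD in Mof+/+, where 3.73% of all genes fell and 6.02% rose. By column headings none of the calls in these lists remained. These were Lnpep, the aminopeptidase carried in GLUT4 vesicles (-1.84 ± 0.25, edgeR adjusted p = 0.0102), and Vamp2, a vesicle SNARE (-0.83 ± 0.19, edgeR adjusted p = 0.0439). Of 18 PPAR partners 3 fell, Nrip1 and Ncor1, which are corepressors (-2.37 ± 0.39 and -0.84 ± 0.18), and the acetyltransferase Ep300 (-1.02 ± 0.21; edgeR adjusted p from 0.0166 to 0.0329). Of 12 PPARγ targets 2 rose, Angptl4, an inhibitor of Lpl (1.45 ± 0.24), and Lpl (1.23 ± 0.21), while the median of the list was -0.08. After length correction Ncor1 and Ep300 no longer passed. Srebf1 and the thyroid hormone receptor gene Thra fell among the 8 further Slc2a4 regulators (-1.79 ± 0.31 and -1.56 ± 0.18).

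Of the glucose phosphorylation genes, not all of whose calls are reported here, Hk2, the insulin-responsive hexokinase (-1.30 ± 0.32), and Pfkm, the muscle-type phosphofructokinase (-2.12 ± 0.32), fell on HFD in Mof+/+, Hk2 no longer so after length correction. Hk3, a hexokinase of myeloid cells, rose by 3.58 ± 0.42 on the log2 scale (edgeR adjusted p = 0.0069), alongside the macrophage markers given above. Of 10 PGC1 partners 1 rose, Sod2, the mitochondrial superoxide dismutase (1.07 ± 0.19, edgeR adjusted p = 0.0223).

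**Figure D5:**
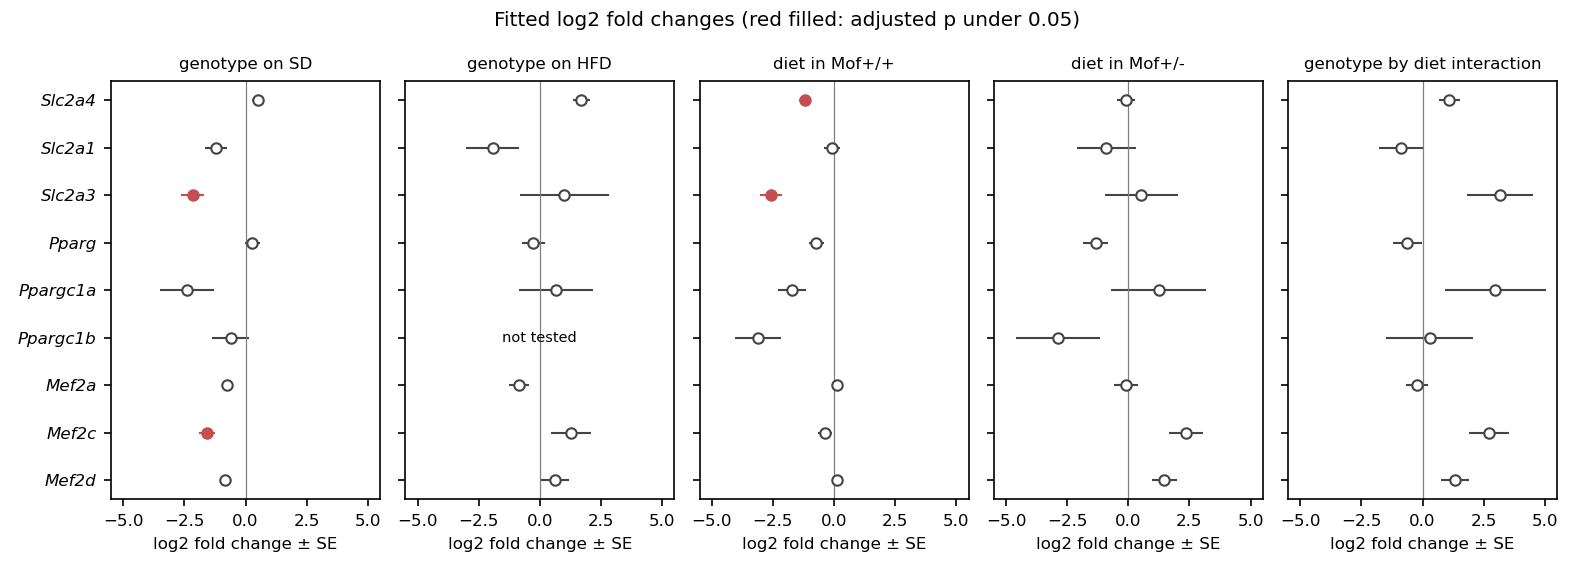
Log2 fold changes with standard errors (x axis) of the 9 genes (y axis) in the 4 pairwise comparisons and the interaction, red filled where the edgeR adjusted p was under 0.05. Slc2a3 and Mef2c pass for genotype on SD and Slc2a4 and Slc2a3 for diet in Mof+/+, and in the comparisons with HFD Mof+/- the error bars are wider, up to 1.96 for Ppargc1a between the diets.

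The third comparison set the genotypes side by side on HFD. Slc2a4 was higher and Slc2a1 and Mef2a were lower in both HFD Mof+/- libraries than in both HFD Mof+/+ libraries, and none of these passed. By edgeR's quasi-likelihood test with Benjamini-Hochberg adjustment, 0 of 8 tested genes passed, as did 0% of all 14120 genes, and 1 of the 8 (Slc2a4) had an unadjusted p under 0.05 against 12.3% of all genes. DESeq2 called 0 of the 8 and 1.57% of all genes. The groups did not overlap for 1 gene that was higher and 2 that were lower, against 8.82% and 45.6% of all genes.

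Slc2a4 was at 93.4 and 65.3 CPM in HFD Mof+/+ and at 205 and 202 CPM in HFD Mof+/-, where the Mof+/- values were close to those of both SD groups. The log2 difference was 1.70 ± 0.33 (edgeR adjusted p = 0.278, n = 2 per group). The libraries also differed in muscle RNA. Skeletal muscle markers summed to 82152 CPM in the library labelled HFD Mof+/- replicate 1 (19 of 20 genes with a count, Tnni1 at 0) and to 1966 CPM in replicate 2 (18 of 20, Myh7 and Tnni1 at 0), against 85.8 and 92.5 CPM in HFD Mof+/+. GLUT4 is also the main insulin-responsive transporter of muscle, and the part of muscle RNA in its difference was not tested. Brown adipocyte markers summed to 1137 and 355 CPM in HFD Mof+/- against 33.9 and 40.1 in HFD Mof+/+, and counts on the mitochondrial genome made up 26.9% of replicate 1 and 1.79% to 8.82% of the other libraries. Macrophage markers summed to 5532 and 7677 CPM in HFD Mof+/+ against 1602 and 3595 in HFD Mof+/-, and adipocyte markers to 29567 and 25814 CPM against 15998 and 45942. The part of these in the differences was not tested either. Without replicate 1 the log2 difference of Slc2a4 was 1.52, and without replicate 2 it was 1.76. With a single library left in a group, which is then assumed to vary like the other group, 4 genes passed without replicate 1 (Slc2a4, Slc2a1, Slc2a3 and Mef2a) and 6 without replicate 2 (Slc2a4, Slc2a1, Slc2a3, Pparg, Mef2c and Mef2d), where 4326 and 7551 of all genes passed. Slc2a3 was higher in Mof+/- without replicate 1 (1.88) and lower without replicate 2, where the only Mof+/- library had 0 counts with a limit of 2.87 CPM, so these calls go in opposite directions.

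Slc2a1 was at 15.0 and 21.4 CPM in HFD Mof+/+ and at 4.8 and 2.9 CPM in HFD Mof+/-, the latter from 5 and 16 counts. Its log2 difference of -1.93 ± 1.08 had the sign it had on SD (edgeR adjusted p = 0.631). Mef2a, at 85.0 and 85.2 against 43.1 and 30.7 CPM, was also lower as it was on SD (-0.86 ± 0.40, edgeR adjusted p = 0.544). After length correction the Mef2a difference on HFD was -0.53. For the other genes the HFD Mof+/- libraries went apart. Mef2c was at 120 and 26.9 CPM and Mef2d at 148 and 61.1, on both sides of the HFD Mof+/+ values of 34.6 and 45.3 for Mef2c and 83.0 and 94.1 for Mef2d. Without replicate 1, the library with the most muscle marker RNA, the log2 differences turned from 1.27 to -0.40 for Mef2c and from 0.62 to -0.37 for Mef2d.

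Pparg was at 142 and 106 CPM in HFD Mof+/+ and at 46.9 and 121 CPM in HFD Mof+/- (log2 difference -0.27 ± 0.46, edgeR adjusted p = 0.894), and it turned to 0.14 without replicate 1. Slc2a3, Ppargc1a and Ppargc1b had 0 of 1044355 counts in replicate 1, which allows up to 2.87 CPM, so a difference from the HFD Mof+/+ levels of 4.9 and 4.0 CPM for Slc2a3 is near this limit and the levels of Ppargc1a and Ppargc1b lie around or below it. In replicate 2 these genes were at 14.6, 6.5 and 0.723 CPM, against 4.9 and 4.0, 3.0 and 2.4, and 0.581 and 0.812 CPM in HFD Mof+/+. Ppargc1b did not reach the filter on low counts here.

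The fourth comparison, diet within Mof+/-, gave 0 of 9 genes past the adjusted threshold with edgeR, 0 with DESeq2, and 3 at an unadjusted p under 0.05, against 0%, 3.07% and 8.57% of all genes. Slc2a4 was at 211, 227 and 214 CPM on SD and at 205 and 202 CPM on HFD (log2 difference -0.09 ± 0.38, edgeR adjusted p = 0.968). In plain CPM all 5 libraries lay within 202 to 227, with both HFD libraries below the SD libraries. Divided by the TMM factors, 0.839 and 0.973 in HFD Mof+/-, the diets overlapped. Skeletal muscle markers summed to 61.5 to 118 CPM on SD and to 82152 and 1966 on HFD, with 18 of 18 tested genes higher at an unadjusted p under 0.05. Brown adipocyte markers summed to 23.5 to 45.7 CPM on SD and to 1137 and 355 on HFD (4 of 5 tested genes higher at an unadjusted p under 0.05), and the part of both in the values of Slc2a4, Mef2c and Mef2d was not tested. Pparg (-1.34 ± 0.50), Mef2c (2.37 ± 0.69) and Mef2d (1.48 ± 0.51) had an unadjusted p of 0.0280, 0.0091 and 0.0201 and edgeR adjusted p of 0.521, 0.427 and 0.488. Pparg was at 46.9 and 121 CPM on HFD against 145 to 269 on SD. Without the library labelled HFD Mof+/- replicate 1 the differences were -0.91 for Pparg, 0.76 for Mef2c and 0.54 for Mef2d. The counts of Slc2a3, Ppargc1a and Ppargc1b in HFD Mof+/- are those given above, and Slc2a1 overlapped between the diets.

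The genotype by diet interaction, fitted to all 10 libraries, asked whether the genotype difference was the same on both diets. It also holds the difference in sex-linked genes between the SD genotypes, of which 2 of 5 passed. With edgeR's quasi-likelihood test 0 of 9 genes passed and 4 had an unadjusted p under 0.05, against 0.0881% and 12.4% of all 15897 genes. DESeq2 called 1 gene, Mef2c, against 3.44% of all genes. The 4 genes were Slc2a4 (1.09 ± 0.42), Slc2a3 (3.17 ± 1.36), Mef2c (2.72 ± 0.80) and Mef2d (1.33 ± 0.56), with edgeR adjusted p from 0.226 to 0.374 and a positive sign that means a higher genotype difference on HFD. The median over all genes was -0.41, and -0.31 with DESeq2's size factors. In this test 18 of 18 tested skeletal muscle markers were positive, with 14 at an unadjusted p under 0.05. Endothelial markers were positive in 10 of 10 (7 at that p) and macrophage markers negative in 9 of 10 (7 at that p). The part of these in the 4 differences was not tested. Without the library labelled HFD Mof+/- replicate 1 the values were 1.02 for Slc2a4, 1.18 for Mef2c and 0.45 for Mef2d, and without replicate 2 they were 1.20, 3.49 and 1.90, with Mef2c and Mef2d called among 3163 of all 17895 genes.

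The 9 genes fell into different patterns over the libraries. Across the 10 libraries the Pearson r of log2 CPM was 0.94 between Mef2c and Mef2d and 0.93 between Slc2a1 and Mef2a, the closest pairs among the 9, as a description over libraries that share groups and depth. Among 9758 genes with a mean of at least 10 CPM, the nearest to Slc2a4 were Sdr39u1, Sccpdh and Dnajb2 (r = 0.965, 0.938 and 0.936). The nearest to Pparg were Gzf1, Abcd2 and Enpep (0.976, 0.974 and 0.973), and to Slc2a3 Mob3b, Gosr1 and Kctd17 (0.979, 0.967 and 0.962). Those near Mef2c included Birc2 and Dll4 (0.950 and 0.948), and those near Ppargc1b included Ctif and Ebf1 (0.929 and 0.911). Gmeb2 was among the nearest of both Slc2a1 (0.951, after Washc4 at 0.955 and Sf1 at 0.953) and Mef2a (0.968, after Mdm4 and Zfp142, both at 0.971). The nearest to Mef2d were Mast2, Irf2bpl and Aftph (0.959, 0.959 and 0.955) and to Ppargc1a Clptm1, Pi4kb and Ibtk (0.972, 0.964 and 0.964).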

How the data were processed

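Visceral WAT was profiled by polyA mRNA-seq in 10 libraries. The authors aligned reads to GRCm38 with STAR (snakePipes), and the deposited tables, 1 per library, hold unnormalized counts by gene. The submitters' processing notes name featureCounts and Subread 1.5.0-p1. Which annotation release was counted is not given in the sources used here. Coordinates and exon lengths came from GENCODE M21 (GRCm38) and symbols from a separate list of gene names, with the version of each identifier dropped. A symbol was matched to 47224 of 47937 identifiers.

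The 9 genes and the lists around them were chosen with earlier results of these data known. Named genes were all 9, the genes of each list past the threshold in any comparison, or with none the 2 with the largest SD difference, and for likeness the 3 genes with the highest Pearson r of log2 CPM (prior count 1, mean of at least 10 CPM). Other symbols served as markers. A few genes that this rule names are not reported here.

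Groups were taken from the labels. CPM are counts per 1000000 of a library's total on genes (1044355 to 17171947), and 3 counts were the floor. Intervals and floors cover counting error only. Group pairs were fitted alone with edgeR 4.0.16 (TMM, filterByExpr, quasi-likelihood), the interaction over all 10 libraries, with Benjamini-Hochberg adjustment over all genes tested and a threshold of 0.05. The SE is the log2 fold change over the root of the F statistic. The share of Slc2a4 was compared by an exact permutation test. Length correction used a per-library lowess (span 0.3) of log2 counts on log2 exon length as an offset. Alternatives were DESeq2 1.42.0, its size factors, TMM without muscle and mitochondrial genes, no filter (at least 1 count), length correction, the column headings, 1 fit of all libraries, a replicate block, and each library left out. The fit was tested on simulated data. Replicates of each group differed by more than sampling noise. Deviations from the group means of same-numbered SD libraries correlated at 0.0053 to 0.0077, so numbers did not pair them. R 4.3.3 and Python 3.11.15 were used.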

Additional observations from a re-analysis of the deposited data

How the results depend on the processing

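For genotype on SD 2 of the 9 genes passed the threshold, with 727 of all genes. By setting the counts were 4 (of all genes 2211) with DESeq2, 0 (465) with length correction, 0 (0) by column headings, 0 (194) with all 10 libraries in 1 fit, 0 (428) with the replicate block, 2 under the other 3 settings, and 0 to 2 (17 to 1026) when 1 library was left out. For genotype on HFD the count was 0 (0), 1 (200) with the replicate block, which called Slc2a4, and 0 to 6 (92 to 7551) when 1 library was left out. For diet in Mof+/+ it was 2 (1457), 4 (2990) with DESeq2, 0 (0) by column headings, 0 (142) in 1 fit, and 0 to 4 (64 to 2230) when 1 library was left out. For diet in Mof+/- it was 0 (0), 1 (429), Mef2c, with no filter on low counts, and 0 to 2 (0 to 2122) when 1 library was left out. For the interaction it was 0 (14), 1 (490) with DESeq2 and 1 (380) with no filter, both Mef2c, and 0 to 2 (4 to 3163) when 1 library was left out. The causes were not tested, but the fits without 1 library had fewer samples. Same-numbered libraries did not deviate together, so the block rests on numbers alone.

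The share of Slc2a4 among transporters was 10.9 percentage points higher in SD Mof+/-, 14.8 on raw counts, 13.6 over all Slc2a genes, 1.34 by column headings (chosen after seeing the data), and 9.88 to 11.7 when 1 library was left out.

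By column headings, the log2 difference of Slc2a1 turned to 0.082 for genotype on SD and 0.43 for diet in Mof+/+, and diet in Mof+/- turned to 0.16 for Slc2a4, -0.29 for Slc2a3 and -0.12 for Ppargc1a. Length correction turned Mef2c to 0.042 for diet in Mof+/+. The replicate block turned Slc2a3 to -0.41 and Ppargc1a to -0.36 on HFD. With 1 library left out, values that changed sign ranged from -1.01 to 0.14 for Pparg, -0.40 to 1.98 for Mef2c and -0.37 to 1.14 for Mef2d on HFD. They ranged from -0.36 to 0.16 for Slc2a1 between diets in Mof+/+. Between diets in Mof+/- they ranged from -0.22 to 0.016 for Slc2a4 and -0.48 to 0.23 for Mef2a. In the interaction they ranged from -0.15 to 0.83 for Ppargc1b and -0.55 to 0.10 for Mef2a. Of 565 alternatives for single log2 differences, 496 kept direction and side of the threshold. Slc2a3, Ppargc1a and Ppargc1b had no fold where leaving out HFD Mof+/- replicate 2 left the group at 0. HFD Mof+/- replicate 1 had 1044355 counts, so 3 counts there are 2.87 CPM.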
